A study of Homo sapiens with 36 samples.

Results

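RNA of 10 human amino acid transporter genes was followed in 36 sequencing libraries while H1 cells, an established human embryonic stem cell line, were driven toward cardiomyocytes. The 10 genes are SLC7A11, SLC7A5, SLC3A2, SLC7A1, SLC7A3, SLC1A4, SLC1A5, SLC38A1, SLC38A2 and SLC6A9, taken by symbol from the 58721 gene rows of the deposited table, and each symbol matched 1 row. The cells were labelled wild type or PERK KO, a knockout of the kinase PERK, whose gene is EIF2AK3. Each genotype was collected at days 0, 1, 2, 3, 5 and 10 with 3 libraries per day, which gives 12 groups; the design text of the series names other days, and the sample labels were followed. All cultures were fed E8 medium, then the WNT activator CHIR99021 from day 0 to day 1 and the WNT inhibitor IWP2 from day 2 to day 5, with heparin and, from day 7, insulin. How PERK was edited, how many clones were used and whether replicates came from separate cultures is not given in the sources used here, so every p-value measures only the spread between these libraries, which may be technical.

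Amino acids cross the plasma membrane through carriers that differ in what they move and in how they are driven. SLC3A2, the heavy chain 4F2hc, is a partner that carries light chains such as SLC7A5 (LAT1, large neutral amino acids including leucine) and SLC7A11 (xCT, cystine in exchange for glutamate) to the cell surface. Cationic amino acids such as arginine enter through SLC7A1 (CAT1) and SLC7A3 (CAT3), neutral ones through SLC1A4 (ASCT1), SLC1A5 (ASCT2) and the sodium-coupled carriers SLC38A1 (SNAT1) and SLC38A2 (SNAT2), and glycine through SLC6A9 (GLYT1). PERK is a sensor of stress in the endoplasmic reticulum that phosphorylates eIF2alpha and so raises ATF4, a transcription factor whose known targets include several of these carriers. The kinase GCN2, encoded by EIF2AK4, feeds the same route when amino acids run short. Cystine taken up by SLC7A11 supplies cysteine for glutathione, and leucine taken up by SLC7A5 feeds the mTORC1 pathway.

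Depth ranged from 14.0 to 25.9 M counted reads per library with a median of 18.2 M. A total of 19772 genes, among them all 10 transporters, passed the filter on low counts. EIF2AK3 RNA was present in both genotypes, with group means of 10.7 to 22.1 CPM (counts scaled to library size) in wild type and 14.6 to 22.0 CPM in PERK KO, and the difference was not called at any day (adjusted p from 0.127 to 0.981, edgeR). The RNA level therefore does not check the knockout label. Cell type markers differed between the genotypes: the summed level of 8 pluripotent stem cell markers lay between 1615 and 1780 CPM in the wild-type libraries of day 5 and between 7259 and 7632 CPM in those of PERK KO. The 8 cardiac markers summed to 14056 to 17870 CPM in wild type at day 10 and to 150 to 532 CPM in PERK KO, and markers of fibroblasts, endothelium and endoderm were also lower in PERK KO at that day. Neuroectoderm markers went the other way at day 10, with 592 to 703 CPM in wild type and 1171 to 1414 CPM in PERK KO. In such bulk samples, fewer cells of a type and less RNA per cell cannot be told apart. PERK KO day 0 replicate 2 stood apart, with a mean transcript length per counted read of 1736 nt against 2540 and 2495 nt in the other libraries of its group, and so did wild type day 2 replicate 3, with 2400 nt against 2665 and 2610 nt. Wild type day 3 (2798, 2659 and 2507 nt) and day 10 (2521 to 2763 nt) were also spread. Their libraries were kept in the fit without that pair.

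Promoter windows from 250 bases before to 50 after an annotated start were present for 8 of the 10 genes in the RefSeq table (GRCh38.p14), 14 windows in all. They were searched on both strands for TGATGNAA, the C/EBP-ATF response element through which ATF4 binds, since these genes are described here in cells labelled PERK KO. A match was found in 5 of the 14 windows, 1 in each of 5 genes, against 3.62% of 35116 windows of the same length. The matches are given with up to 10 bases on either side, 5′ to 3′ on the strand of the gene, with the element in capitals. Positions count the first transcribed base as 0.
SLC1A4: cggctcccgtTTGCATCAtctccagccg
SLC1A5: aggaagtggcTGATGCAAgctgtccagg
SLC38A1: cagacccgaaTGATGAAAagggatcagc
SLC3A2: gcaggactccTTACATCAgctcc
SLC7A1: ggcgcactgcTGATGAAAcctggcgccg
The SLC1A4 stretch lies at chr2:64989382-64989409 on the plus strand, with the element at -7 to 0 in reverse orientation. In SLC1A5 it lies at chr19:46784894-46784921 on the minus strand, at -97 to -90. The SLC38A1 stretch, at chr12:46266503-46266530 on the minus strand, holds the element at -4 to 3. In SLC3A2 the element is at 37 to 44, in reverse, within chr11:62881726-62881748 on the plus strand. The SLC7A1 element is at 7 to 14, within chr13:29595664-29595691 on the minus strand. The starts used for SLC1A4, SLC1A5, SLC38A1 and SLC3A2 lie inside the GENCODE limits of the gene, and that of SLC7A1 lies at its 5′ end. The E-box CACGTG was found in 2 of the 14 windows (in SLC1A5 and SLC7A5), against 7.26% of all windows. The core TGACNNNGC of the antioxidant response element was found in 4 of the 14 (in SLC1A5, SLC3A2, SLC7A1 and SLC7A5), against 13.3%. The motifs do not overlap one another in these windows, and a match is a run of letters, not a shown binding site.

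Levels of different genes are compared only as TPM, a unit that accounts for transcript length and library size. At day 0 the order of mean TPM was the same in both genotypes, led by SLC3A2 (314 ± 29.4 TPM in wild type, 245 ± 43.5 in PERK KO; mean ± SD, n = 3 here and throughout), SLC1A5 (268 ± 8.98 and 199 ± 18.9) and SLC7A5 (245 ± 20.0 and 140 ± 51.9). The wild-type SDs of SLC1A5 and SLC7A5 at day 0 overlap, so their order is not firm. SLC7A11 (6.45 ± 0.73 TPM) and SLC1A4 (0.91 ± 0.16 TPM) were last in wild type. SLC7A5 led at day 1 with 543 ± 39.9 TPM in wild type and 363 ± 52.0 in PERK KO. At days 2, 3 and 5 the leading gene differed between the genotypes. SLC1A5 was first in wild type at each of these days. In PERK KO, SLC3A2 was first at days 2 and 5 and SLC7A3 at day 3 (194 ± 10.4 TPM). At day 10 SLC3A2 was first in both genotypes (247 ± 28.0 TPM in wild type, 133 ± 7.33 in PERK KO). The 10 genes summed to 1141 ± 28.0 TPM in wild type and 833 ± 118 TPM in PERK KO at day 0. The sum fell to its lowest wild-type mean at day 3 (371 ± 25.5 TPM), where PERK KO held 673 ± 10.8 TPM, and at day 10 the order was turned, with 514 ± 34.9 TPM in wild type and 402 ± 12.1 TPM in PERK KO. The 3 libraries of one genotype did not overlap those of the other in this sum at any of the 6 days.

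**Figure D1:**
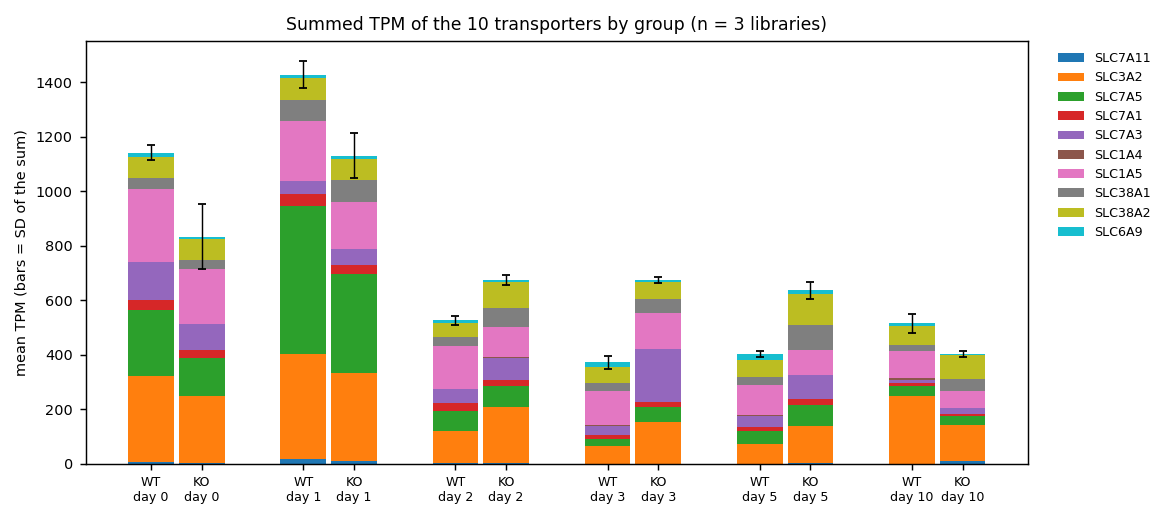
Stacked bars give the mean TPM of each of the 10 transporters in the 12 groups (wild type, WT, and PERK KO, KO, at each day), and the error bar is the SD of the summed TPM over 3 libraries. The sum is higher in wild type at days 0, 1 and 10 and higher in PERK KO at days 2, 3 and 5.

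Across the 6 days, 9 of the 10 genes changed in wild type, where 88.9% of all genes tested were called, and 9 changed in PERK KO (80.9% of all genes), in a quasi-likelihood F test in edgeR. SLC38A2 was the 1 gene not called in either genotype (adjusted p = 0.148 and 0.137). This depended on the setting. With no filter on low counts SLC38A2 was called in wild type (adjusted p = 0.00102) and in PERK KO (0.000393). In PERK KO it was also called with only the groups compared (0.00627) and in the fit that omits the pair named above (0.00634). In wild type it was called without day 3 replicate 1 (0.0333). DESeq2, RLE scaling and the stricter filter left it not called in both. By day 2 of wild type 9 genes, all but SLC7A1 (-0.36, adjusted p = 0.0675), had fallen from day 0 (25.1% of all genes were called lower and 25.4% higher) and none had risen, in edgeR at either the adjusted or the unadjusted threshold and in DESeq2. The median log2 change of the 10 was -1.15. At day 10, 8 of the 10 were lower than at day 0 (34.3% of all genes) and SLC1A4 was higher (2.08 ± 0.37, adjusted p = 1.26e-05; 34.9% of all genes), while SLC38A2 was not called (-0.53, adjusted p = 0.122). In PERK KO 6 genes (SLC7A5, SLC1A5, SLC1A4, SLC7A1, SLC7A3 and SLC3A2) had fallen by day 2 (23.8% of all genes) and SLC38A1 had risen (17.5%), with a median log2 change of -0.58. SLC38A2, SLC7A11 and SLC6A9 were not called (0.05, -0.11 and -0.28). At day 10, 6 (SLC7A5, SLC1A5, SLC7A1, SLC7A3, SLC3A2 and SLC6A9) were lower (31.9%), SLC38A1, SLC38A2 and SLC1A4 were not called (-0.29, -0.34 and 0.66), and SLC7A11 was higher (29.9%). These counts stood above the background share for genes called lower and below it for genes called higher, and the counts for any difference among days were close to it. The day 2 and day 10 comparisons of a genotype share its day 0 libraries. Without the pair of libraries that stood apart, SLC38A1 and SLC38A2 were called lower in PERK KO at day 10 than at day 0 (-0.56, adjusted p = 0.0403, and -0.59, 0.0431). In that fit SLC38A2 was also called lower in wild type at day 10 (-0.54, adjusted p = 0.0329). The wild-type fall was called too with no filter on low counts (0.0157) and with only the groups compared (0.0449). Leaving out wild type day 10 replicate 1 gave the same call (-0.88, adjusted p = 0.0212). The rise of SLC38A1 in PERK KO by day 2 (log2 change 0.77 ± 0.30, adjusted p = 0.0388) was lost without PERK KO day 0 replicate 2 (0.52, adjusted p = 0.229) or any 1 of the day 2 libraries, and the fall of SLC1A4 (-1.32 ± 0.51, adjusted p = 0.0373) without day 0 replicate 1 or 3 or any 1 of those of day 2. The fall of SLC7A1 was lost without day 0 replicate 3 (-0.40, adjusted p = 0.0680), and in wild type that of SLC38A2 without day 2 replicate 3 (-0.44, adjusted p = 0.234) or day 0 replicate 2 or 3.

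Between genotypes, the members moved in different directions at different days. At day 0, 3 genes (SLC7A5, SLC1A4 and SLC6A9) were lower in PERK KO, where 8.64% of all genes were called lower. At day 1 it was 2 genes (SLC7A5 and SLC1A5; 7.72% of all genes). In the fit of all 36 libraries no member was called higher at either day in edgeR, also without adjustment, or in DESeq2, while 12.5% and 8.11% of all genes were called higher. From day 2 most calls were higher: 5 genes at day 2 (20.9% of all genes) with 2 lower (21.7%), 5 at day 3 (21.9%) with 2 lower (23.2%), and 6 at day 5 (28.6%) with 3 lower (30.5%). At day 10, 3 were higher (33.3%, close to the share of the members) and 6 lower (34%). The higher share of the members exceeded that of all genes at days 2, 3 and 5 and the lower share at day 10. The median log2 fold change of the 10 genes was -0.21, -0.32, 0.38, 0.80, 0.60 and -0.77 from day 0 to day 10, and the median of all genes tested lay within 0.03 of 0 at each day. The change over the days differed between the genotypes for 8 of the 10 genes, all but SLC38A2 (interaction adjusted p = 0.162) and SLC6A9 (0.0789), where 80.9% of all genes were called, so that share is the background. With no filter on low counts the interaction was called for SLC38A2 (0.000865). The calls of days 0 and 1 are the least firm: with only the 6 libraries of day 0 in the fit no member was called in edgeR (4 at an unadjusted p under 0.05), and at day 1 the count was 6 with only its own libraries and 1 without any 1 of them. Of those 6, SLC7A3 was called higher (0.19, adjusted p = 0.0448) and the others lower.

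**Figure D2:**
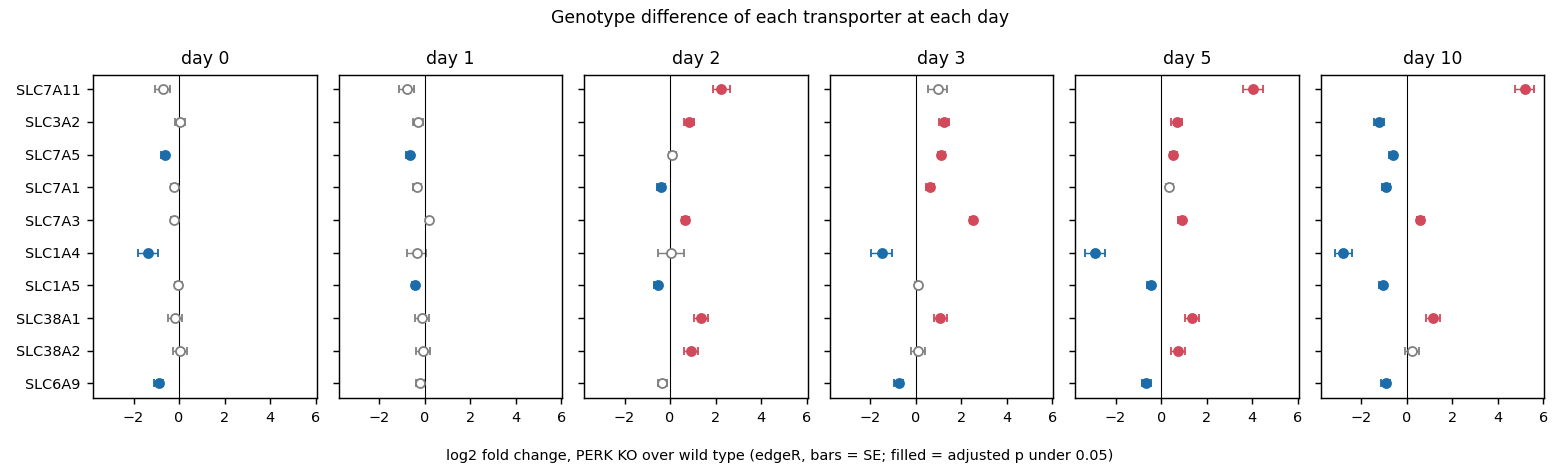
Each panel is a day and each row a transporter; points are the log2 fold change of PERK KO over wild type from edgeR, bars its SE, and filled points are called (adjusted p under 0.05), red higher and blue lower. SLC7A11 moves from -0.73 at day 0 to 5.18 at day 10, and SLC1A4 and SLC6A9 stay at or left of 0 apart from SLC1A4 at day 2.

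SLC7A11, the cystine and glutamate exchanger, showed the largest genotype difference of the 10 genes. Its gene (ENSG00000151012.13) spans chr4:138164097-138242349 on the minus strand. In wild type the libraries held 48.5, 44.9 and 44.3 CPM at day 0, 113, 127 and 121 CPM at day 1, and 5.69, 9.19 and 1.51 CPM at day 2. From day 3 to day 10 no wild-type library exceeded 3.06 CPM, which corresponds to 12 to 68 counts. The RNA was thus highest at day 1 and low from day 3 on. PERK KO began lower, with 32.4, 21.3 and 29.4 CPM at day 0 and 80.2, 60.3 and 69.0 CPM at day 1, below every wild-type library, but neither difference was called (log2 fold change -0.73 ± 0.34 SE, adjusted p = 0.131, and -0.78 ± 0.33, adjusted p = 0.113). The gene was called lower at day 0 with no filter on low counts (adjusted p = 0.00931). At day 1 it was called lower with no filter (0.00409), with only the groups compared (5.30e-06) and with the pair of libraries that stood apart left out (0.0112). At day 2 it still held 30.3, 20.9 and 26.2 CPM, at day 3 only 4.14, 2.48 and 3.92 CPM, and it then rose to 20.6, 23.3 and 20.8 CPM at day 5 and 60.2, 67.2 and 62.2 CPM at day 10. The PERK KO course thus has a dip at day 3 between 2 high phases, which the wild-type course lacks. SLC7A11 was 4.74-fold higher in PERK KO at day 2 (log2 fold change 2.25 ± 0.37, adjusted p = 9.30e-06), 16.4-fold at day 5 (4.03 ± 0.43, adjusted p = 1.66e-09) and 36.2-fold at day 10 (5.18 ± 0.43, adjusted p = 6.87e-12), with no overlap of the libraries. At day 3 the libraries overlapped and the difference was not called (0.98 ± 0.42, adjusted p = 0.0578). It was called without wild type day 3 replicate 1 (1.70, adjusted p = 0.00492) or PERK KO day 3 replicate 2 (1.18, adjusted p = 0.0381), and in DESeq2 (0.99, adjusted p = 0.0335). Within PERK KO, SLC7A11 was higher at day 10 than at day 0 (log2 change 1.19 ± 0.34, adjusted p = 0.00339), while it fell in wild type (-4.72 ± 0.42, adjusted p = 2.66e-11).

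**Figure D3:**
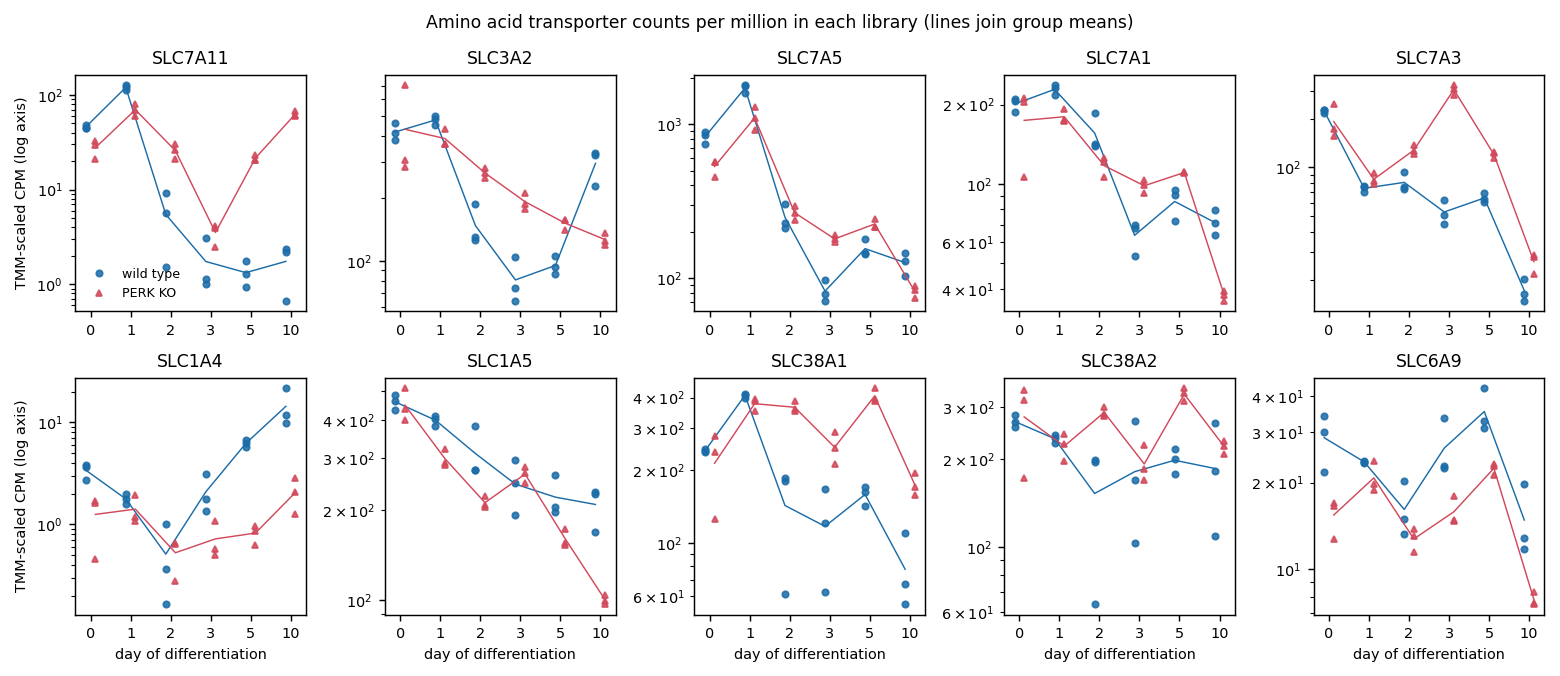
Each panel shows 1 transporter: points are CPM of single libraries on a log axis, with wild type as circles and PERK KO as triangles, over the sampled days (drawn at equal spacing), and lines join the group means. SLC7A11 in wild type stays at or below 3.06 CPM from day 3 while PERK KO climbs to 60.2 to 67.2 CPM at day 10, and SLC7A3 peaks in PERK KO at day 3.

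SLC7A5, the large neutral amino acid light chain (ENSG00000103257.8, chr16:87830023-87869488, minus strand), peaked at day 1 in both genotypes. Wild type held 1593, 1791 and 1781 CPM at day 1 and PERK KO 1091, 1288 and 920 CPM, with no overlap. The gene was lower in PERK KO at day 0 (log2 fold change -0.64 ± 0.15, adjusted p = 0.00277) and day 1 (-0.65 ± 0.15, adjusted p = 0.00274). By day 3 the wild-type libraries had come down to 71.5, 78.5 and 97.1 CPM and those of PERK KO to 172, 179 and 189 CPM. This is a 2.18-fold higher level in PERK KO (1.13 ± 0.15, adjusted p = 3.14e-07), and the difference held at day 5 (0.53 ± 0.15, adjusted p = 0.00347) and was turned at day 10 (-0.62 ± 0.15, adjusted p = 0.000782). At day 2 the libraries overlapped (0.10 ± 0.15, adjusted p = 0.624). Counts of its pseudogene copies SLC7A5P1 and SLC7A5P2 stayed at 18 or fewer per library, and reads may be split between them and SLC7A5.

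SLC3A2, the shared heavy chain (ENSG00000168003.16, chr11:62856102-62888875, plus strand), was first or second of the members by mean TPM in every group, but its level changed over the days. Its wild-type libraries fell from 460, 414 and 381 CPM at day 0 to 64.5, 74.3 and 104 CPM at day 3 and stood at 230, 333 and 323 CPM at day 10. In PERK KO the level was 178, 189 and 212 CPM at day 3 and 120, 136 and 124 CPM at day 10. In wild type the day 10 libraries lay above those of day 3, and in PERK KO they lay under them. From day 0 to day 1 the mean of PERK KO was 245 ± 43.5 and 321 ± 20.4 TPM. In CPM it was 431 ± 235 and 389 ± 38.5, so the units differ in direction. The lowest PERK KO group mean in CPM was that of day 10 (127 ± 8.45). The gene was higher in PERK KO at day 2 (log2 fold change 0.84 ± 0.22, adjusted p = 0.00276), day 3 (1.25 ± 0.22, adjusted p = 2.54e-05) and day 5 (0.68 ± 0.22, adjusted p = 0.00996) and lower at day 10 (-1.22 ± 0.22, adjusted p = 2.05e-05). It was not called at day 1 (-0.30, adjusted p = 0.423), except with only the groups compared (0.00526). PERK KO day 0 replicate 2 held 702 CPM beside 285 and 306 CPM in its group. Without it the day 0 difference turned from 0.04 to -0.50 (adjusted p = 0.0210) and the fall of PERK KO from day 0 to day 2 was no longer called (-0.14, adjusted p = 0.515). The fall of wild type from day 0 to day 10 (-0.50 ± 0.22, adjusted p = 0.0437) was lost in DESeq2 (adjusted p = 0.0622), with RLE scaling (0.0641), and without wild type day 0 replicate 1 (0.127) or 2 (0.0900) or day 10 replicate 1 (0.208).

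The light chains SLC7A5, SLC7A6, SLC7A7, SLC7A8, SLC7A10 and SLC7A11 together were set against SLC3A2 in TPM. The ratio was 1.64 ± 0.16 at day 1 in wild type and 1.40 ± 0.10 in PERK KO. At day 10 it was 0.498, 0.397 and 0.467 in wild type and 0.923, 0.836 and 0.896 in PERK KO, about 1.96 times as high. SLC3A2 itself was at 247 ± 28.0 TPM in wild type and 133 ± 7.33 in PERK KO at that day. Mean TPM of SLC7A8 and SLC7A11 was higher in PERK KO there, and that of SLC7A5 and SLC7A7 was lower. At days 2 and 3 the ratio was lower in PERK KO without overlap (0.900 ± 0.04 against 1.18 ± 0.11 at day 2). SLC7A11 over SLC7A5 moved most: it was 0.0264 ± 0.0033 in wild type and 0.0221 ± 0.0027 in PERK KO at day 0, and 0.00637 ± 0.0038 against 0.356 ± 0.051 at day 10. An exact two-sided permutation test of 3 against 3 libraries cannot give a p below 0.1, so the 30 ratio comparisons are described only.

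**Figure D4:**
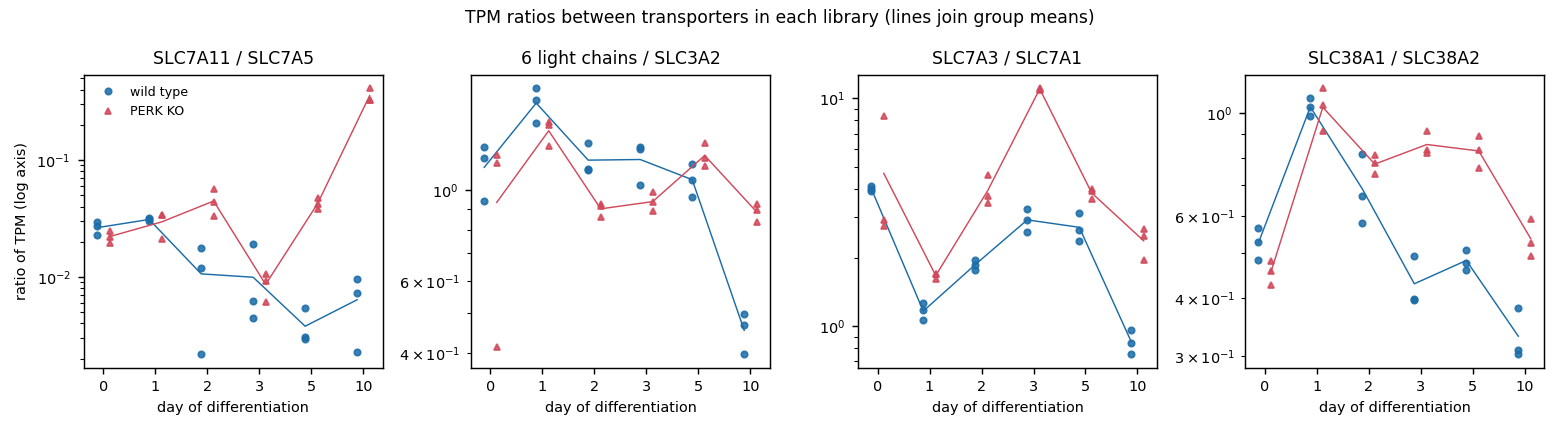
Points are ratios of TPM in single libraries on a log axis (wild type circles, PERK KO triangles, lines through the group means, days at equal spacing). SLC7A11 over SLC7A5 is 0.324 to 0.415 in PERK KO at day 10 and at most 0.0096 in wild type; the lone low triangle in the light-chain panel (0.414) and the lone high one in the SLC7A3 panel (8.39) are PERK KO day 0 replicate 2.

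The cationic amino acid carriers SLC7A1 and SLC7A3 took different courses. SLC7A3 (ENSG00000165349.11, chrX:70925582-70931125, minus strand) held 218, 227 and 226 CPM in wild type at day 0 and 157, 249 and 172 CPM in PERK KO. At day 3 wild type was down to 44.9, 51.0 and 63.0 CPM while PERK KO had 280, 308 and 323 CPM. That is a 5.73-fold difference without overlap (log2 fold change 2.52 ± 0.15, adjusted p = 9.03e-15), and the PERK KO level at day 3 lay above that of every other group. It was also higher in PERK KO at day 2 (0.66 ± 0.15, adjusted p = 0.000449), day 5 (0.90 ± 0.15, adjusted p = 4.73e-06) and day 10 (0.60 ± 0.15, adjusted p = 0.000878). The pluripotent stem cell markers also stood high in PERK KO at day 3 (8977 to 9761 CPM summed, all 8 at 1 CPM or more) against 1471 to 2176 CPM in wild type. Other lists were lower in PERK KO at that day, among them the fibroblast and matrix markers (148 to 168 CPM against 1854 to 2542). The neuroectoderm markers overlapped (795 to 861 CPM against 597 to 804). The part of these lists in the SLC7A3 difference was not tested. Without PERK KO day 0 replicate 2 SLC7A3 was lower in PERK KO at day 0 (-0.44, adjusted p = 0.0101; -0.22, adjusted p = 0.303 with it). At day 1 it was not called in the fit of all libraries (0.19, adjusted p = 0.453).

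SLC7A1 (ENSG00000139514.12, chr13:29509410-29595688, minus strand) held 53.2, 68.2 and 70.2 CPM in wild type and 92.0, 99.4 and 104 CPM in PERK KO at day 3. It was 1.54-fold higher in PERK KO at that day (log2 fold change 0.62 ± 0.17, adjusted p = 0.00262). At day 10 the order was turned, with 64.0, 70.8 and 79.5 CPM in wild type and 36.1, 38.0 and 39.3 CPM in PERK KO (-0.92 ± 0.17, adjusted p = 2.12e-05). It was not called at day 0 (-0.20, adjusted p = 0.418), day 1 (-0.35, 0.171) or day 5 (0.37 ± 0.17, 0.0592). The day 5 difference was called with the stricter filter (adjusted p = 0.0460), the transcript length offset (0.0457), only the groups compared (0.00158), without the pair of libraries that stood apart (0.00133) and without wild type day 5 replicate 1 (0.0447). The day 1 difference was called without that pair (0.0116) and with only the groups compared (0.000857). The call at day 2 (-0.41 ± 0.17, adjusted p = 0.0453) was lost without wild type day 2 replicate 3 (-0.26, adjusted p = 0.295) and without any 1 of the 3 PERK KO libraries of that day. The TPM of SLC7A3 over that of SLC7A1 was 11.0 ± 0.11 in PERK KO at day 3 and 2.93 ± 0.33 in wild type. The ratio was above the wild-type libraries, with no overlap, at days 1, 2, 3, 5 and 10.

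The neutral amino acid exchangers SLC1A4 and SLC1A5 are paralogues of very different abundance here. SLC1A5, which takes up glutamine (ENSG00000105281.12, chr19:46774883-46788594, minus strand), fell in both genotypes. At day 10 wild type held 170, 227 and 231 CPM and PERK KO 97.4, 105 and 99.2 CPM, from 433 to 485 and 403 to 511 CPM at day 0. It was lower in PERK KO at day 2 (log2 fold change -0.55 ± 0.15, adjusted p = 0.00288), day 5 (-0.46 ± 0.15, adjusted p = 0.00757) and day 10 (-1.06 ± 0.15, adjusted p = 2.42e-07). The call at day 1 (-0.43 ± 0.14, adjusted p = 0.0405) was lost on leaving out any 1 of the 6 libraries, and the one at day 5 without wild type day 5 replicate 1 (-0.30, adjusted p = 0.0701). Days 0 and 3 were not called (-0.04, adjusted p = 0.904, and 0.11, adjusted p = 0.563).

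SLC1A4, which carries serine and alanine (ENSG00000115902.10, chr2:64988477-65023865, plus strand), had the lowest mean TPM of the 10 genes in 9 of the 12 groups, and SLC7A11 had it in wild type at days 3, 5 and 10. Its depth was 3 to 383 counts per library. Wild type rose from 1.00, 0.17 and 0.36 CPM at day 2 to 6.33, 6.64 and 5.66 CPM at day 5 and 11.8, 9.78 and 21.4 CPM at day 10. PERK KO reached only 0.63, 0.86 and 0.97 CPM at day 5 and 1.26, 2.07 and 2.85 CPM at day 10. The late rise of wild type was therefore not matched in PERK KO, and the gene was 7.46-fold lower at day 5 (log2 fold change -2.90 ± 0.43, adjusted p = 8.54e-07) and 6.89-fold lower at day 10 (-2.78 ± 0.38, adjusted p = 2.02e-07). At day 10 the cardiac markers stood at 14056 to 17870 CPM in wild type and 150 to 532 CPM in PERK KO, and other lists differed too. The fibroblast and matrix markers stood at 3546 to 5175 CPM in wild type and 189 to 274 in PERK KO, the endothelial and blood markers at 479 to 612 and 22.8 to 43.9, and the endoderm and liver markers at 1334 to 2063 and 312 to 526. The primitive streak and mesoderm markers were lower in PERK KO (9.57 to 10.4 CPM against 30.3 to 41.6). The pluripotent stem cell markers were higher in PERK KO (2166 to 2245 CPM against 650 to 792). So were the neuroectoderm markers (1171 to 1414 CPM against 592 to 703). The part of these lists in the SLC1A4 difference was not tested. The call at day 3 (-1.50 ± 0.45, adjusted p = 0.00658) was lost without wild type day 3 replicate 3 (-1.09, adjusted p = 0.0693). The call at day 0 (-1.37 ± 0.43, adjusted p = 0.0202) was lost without wild type day 0 replicate 1 (0.0502) or 3 (0.0690) or PERK KO day 0 replicate 2 (0.0823), and with a transcript length offset (0.163). Days 1 and 2 were not called (-0.35, adjusted p = 0.659, and 0.03, adjusted p = 0.978).

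The sodium-coupled carriers SLC38A1 and SLC38A2, whose genes are neighbours on chromosome 12, moved by different amounts. SLC38A1 (ENSG00000111371.15, chr12:46183063-46270017, minus strand) held 186, 181 and 61.2 CPM in wild type at day 2 and 386, 352 and 357 CPM in PERK KO. At day 5 the values were 142, 163 and 171 CPM against 395, 388 and 437 CPM, and at day 10 they were 110, 67.7 and 55.8 CPM against 171, 158 and 194 CPM. PERK KO libraries lay above those of wild type at all 4 days from day 2 on. The log2 fold changes were 1.35 ± 0.30 (adjusted p = 0.000559), 1.09 ± 0.30 (0.00353), 1.36 ± 0.30 (0.000311) and 1.17 ± 0.30 (0.00122) at days 2, 3, 5 and 10, and days 0 and 1 were not called (-0.17, adjusted p = 0.740, and -0.11, 0.861). Wild type day 2 replicate 3 and day 3 replicate 3 were low for SLC38A1 (61.2 and 62.6 CPM), and the fall of wild type from day 0 to day 2 (-0.75 ± 0.30, adjusted p = 0.0366) was lost without the first (-0.38, adjusted p = 0.296) and without any 1 of the day 0 libraries.

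SLC38A2 (ENSG00000134294.13, chr12:46358189-46372867, minus strand) had the steadiest group means of the members. Its highest group mean was 1.76 times the lowest in wild type and 1.73 times in PERK KO. Single wild-type libraries were spread, with 270, 169 and 103 CPM at day 3 and 266, 181 and 109 CPM at day 10. The means of the groups ranged from 152 to 332 CPM. It was higher in PERK KO at day 2 (log2 fold change 0.92 ± 0.31, adjusted p = 0.0162), where wild type held 195, 197 and 64.0 CPM and PERK KO 300, 279 and 284 CPM, and at day 5 (0.75 ± 0.31, adjusted p = 0.0363). Both calls depended on single libraries: the first was lost without wild type day 2 replicate 3 (0.55, adjusted p = 0.161) and the second without any 1 of the 6 libraries. Days 0, 1, 3 and 10 were not called (0.05, -0.08, 0.09 and 0.25; adjusted p = 0.939, 0.905, 0.848 and 0.489). SLC38A1 over SLC38A2 in TPM was 0.856 ± 0.050 in PERK KO and 0.430 ± 0.055 in wild type at day 3. Its PERK KO values lay above all wild-type values of the same day at days 3, 5 and 10, a shift toward SLC38A1. At day 0 they lay below all wild-type values (0.455 ± 0.027 against 0.525 ± 0.042), and at days 1 and 2 the libraries overlapped.

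SLC6A9, the glycine carrier (ENSG00000196517.11, chr1:43991500-44031467, minus strand), was lower in PERK KO at 4 of the 6 days. At day 0 wild type held 21.8, 30.1 and 34.1 CPM and PERK KO 17.0, 12.7 and 16.6 CPM (log2 fold change -0.89 ± 0.20, adjusted p = 0.00141). At day 5 it was 42.6, 32.7 and 31.0 CPM against 21.2, 23.2 and 22.9 CPM (-0.66 ± 0.19, adjusted p = 0.00418), and at day 10 it was 11.7, 12.8 and 19.8 CPM against 7.55, 8.29 and 7.59 CPM (-0.92 ± 0.20, adjusted p = 0.000186). Day 3 gave -0.74 ± 0.19 (adjusted p = 0.00218), and libraries did not overlap at these days. Days 1 and 2 were not called (-0.19, adjusted p = 0.593, and -0.34, adjusted p = 0.160). The course over the days was not shown to differ between genotypes (interaction adjusted p = 0.0789), but it was called without wild type day 0 replicate 1 (0.0344), day 2 replicate 3 (0.0238), day 5 replicate 1 (0.0479) or day 10 replicate 1 (0.0401). The overlapping gene CCDC24 on the opposite strand held 82 to 286 counts, and its reads cannot be told apart from those of SLC6A9 if strand was not used in counting, which is not given in the sources used here.

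The genes whose mean log2 CPM followed each member most closely over the 12 groups are given as a description, over groups that share libraries of one experiment. SLC7A11 was followed by SNX10 (Pearson r = 0.974), ZC3H15 (0.973) and SREK1IP1 (0.972). SLC7A5 was followed by SHMT2, a mitochondrial serine enzyme (0.953), GARS, a glycyl-tRNA synthetase (0.945), and TIMM21 (0.938), and SLC3A2 by CISD1 (0.957), AC012368.1 (0.949) and CHCHD3 (0.938). SLC7A1 was followed by CCDC86 (0.980), MTHFD1L, a mitochondrial folate enzyme (0.966), and P2RY11 (0.963). For SLC7A3 they were TRIM35 (0.950), FOXD3-AS1 (0.942) and TALDO1 (0.938). SLC1A4 had FAM19A4 (0.921), AKR1C1 (0.918) and HLA-B (0.914), and SLC1A5 had PALD1 (0.978), FAM120A (0.958) and STAU1 (0.956). SLC38A1 was followed by ANKRD28 (0.973), ARMC8 (0.965) and TRAPPC8 (0.964), SLC38A2 by JMJD1C (0.912), CDC37L1 (0.907) and MAP4K3 (0.897), and SLC6A9 by DCTN1 (0.882), NAA60 (0.879) and EHHADH (0.846). Among the members, SLC7A5 and SLC7A1 had the highest pairwise r over the 12 groups (0.919). SLC7A11 and SLC7A5 ran together over the 6 wild-type days (r = 0.979) and less closely over those of PERK KO (0.251).

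Of 29 other amino acid transporters listed, 26 were tested. At day 3, 13 were higher and 6 lower in PERK KO (median log2 fold change 0.55; 21.9% and 23.2% of all genes), and at day 5 it was 13 and 5 (0.26; 28.6% and 30.5%). The higher counts stood above the background share, the 6 lower at day 3 were close to it, and the 5 lower at day 5 were under it. Day 0 gave 2 higher and 4 lower (median -0.05, against 12.5% and 8.64% of all genes). Day 1 gave 3 and 0 (-0.04, 8.11% and 7.72%), and day 2 gave 6 and 4 (0.06, 20.9% and 21.7%). At day 10 it was 11 and 10 (0.04), where 33.3% and 34% of all genes were called. SLC1A1, a neuronal glutamate carrier, was higher in PERK KO at day 2 (13.1 ± 1.80 CPM against 1.14 ± 0.26, log2 fold change 3.52 ± 0.21, adjusted p = 9.85e-15), and SLC7A8, a light chain of SLC3A2, was at 218 ± 21.4 CPM against 87.0 ± 17.1 (adjusted p = 2.86e-07). SLC1A3, a glial glutamate carrier, was lower in PERK KO at day 5 (4.82 ± 0.23 CPM against 38.0 ± 4.01) and SLC43A1 at day 10 (1.38 ± 0.72 against 24.8 ± 5.99).

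Of the 20 genes of the ATF4 and amino acid response list, 4 were higher and 0 lower in PERK KO at day 0 (12.5% and 8.64% of all genes), among them ATF3 (41.1 ± 3.49 CPM against 15.5 ± 1.90, log2 fold change 1.41 ± 0.18, adjusted p = 1.25e-06) and CHAC1. At day 1, 8 were lower and 1 higher (median -0.36; 7.72% and 8.11% of all genes), with PSAT1, a serine synthesis enzyme, at 308 ± 24.7 against 569 ± 16.6 CPM. The calls were divided at day 2, with 7 higher and 7 lower (20.9% and 21.7% of all genes), and at day 5, with 7 and 6 (median 0.08; 28.6% and 30.5%). At day 3, 10 were higher and 2 lower (median 0.40; 21.9% and 23.2% of all genes), and at day 10, 4 higher and 11 lower (median -0.72; 33.3% and 34%), with ATF3 at 7.26 ± 1.03 against 56.5 ± 18.9 CPM. In the cystine and glutathione list of 11 genes, 4 were higher and 1 lower at day 2 (20.9% and 21.7% of all genes), 5 and 1 at day 3 (21.9% and 23.2%), and 5 and 0 at day 5 (28.6% and 30.5%), among them CBS, a transsulfuration enzyme (240 ± 4.32 against 118 ± 11.1 CPM), GCLM and TXNRD1. Days 0 and 1 each had 0 higher and 2 lower (12.5% and 8.64% of all genes at day 0, 8.11% and 7.72% at day 1). Day 10 had 4 higher and 5 lower (median -0.08, against 33.3% and 34% of all genes). The 13 genes of leucine sensing and mTORC1 control held 3 higher and 1 lower at day 0 (median 0.09, against 12.5% and 8.64% of all genes). Day 1 gave 1 and 1 (8.11% and 7.72%) and day 2 gave 3 and 4 (20.9% and 21.7%). Day 3 gave 2 and 4 (21.9% and 23.2%) and day 5 gave 2 and 5 (28.6% and 30.5%). At day 10 it was 1 higher and 8 lower (median -0.77, against 33.3% and 34% of all genes). Among the 8 were DDIT4, an mTORC1 inhibitor (119 ± 16.4 against 474 ± 130 CPM), and SESN2 (23.7 ± 0.62 against 49.2 ± 10.4 CPM). The ATF4 list holds both of these genes too.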

How the data were processed

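Per the submitters' processing notes, reads were handled with CASAVA and FastQC, aligned with STAR and quantified with RSEM on GRCh38, with no version named in the sources used here. The deposited expected counts per gene, per the file headers, were the same in the series table and in the sample files, which also hold TPM and effective length. The TPM values are the authors' RSEM estimates and were used as deposited. All 58721 identifiers matched GENCODE release 29.

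Expected counts were rounded to whole numbers, filtered with filterByExpr (19772 genes) and normalized by TMM. All 36 libraries entered 1 quasi-likelihood fit of 12 genotype-by-day groups in edgeR 4.0.16 under R 4.3.3 with limma 3.58.1, which leaves 24 residual degrees of freedom. P-values were adjusted by Benjamini-Hochberg over all genes within a comparison, and a gene was called at an adjusted p under 0.05. CPM are counts scaled by TMM library size. The SE was derived from the size of a fold change and its F statistic. In counts simulated for day 3 of PERK KO against wild type (19772 genes), the share of planted changes called was 11.9% at 1.5-fold, 73.1% at 2-fold and 93.9% at 4-fold, beside 4 false calls. Only the planted genes (67, 67 and 66 at these sizes) differed there, while 8922 genes were called in the data at day 3. The Benjamini-Hochberg cutoff depends on how many genes differ, so these rates do not carry over to the tests above.

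The members and lists were chosen with earlier results of these data known. Every member is named in every comparison, of each other list up to 3 genes with the smallest p at a comparison, and for each member the 3 genes with the highest r among those with a mean of at least 5 CPM. Alternatives were no filter and a stricter one (1 CPM in 3 libraries), RLE scaling, DESeq2 1.42.0, only the groups compared, a replicate block, a transcript length offset, a fit without the pair of libraries that stood apart, each library left out in turn, and TPM in place of CPM. Replicates of a group differed by more than sampling noise (chi-square per degree of freedom at least 2.33), so none was counted as a repeat. The replicate numbers were not taken as pairs. Python 3.11.15 with numpy 2.4.6, pandas 2.3.3, scipy 1.17.1 and matplotlib 3.10.9 gave the summaries and plots.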

Additional observations from a re-analysis of the deposited data

Results flagged for a closer look

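The change over the days differed between PERK KO and wild type, by the genotype-by-day interaction in edgeR, for 8 of the 10 transporters. The adjusted p was 1.91e-11 for SLC7A11, 2.52e-11 for SLC7A3, 9.00e-09 for SLC7A5, 4.19e-07 for SLC3A2, 1.13e-05 for SLC7A1, 0.000135 for SLC1A5, 0.000305 for SLC1A4 and 0.00126 for SLC38A1. Since 80.9% of all genes tested passed the same test, these calls do not set the transporters apart from other genes. Groups of 3 libraries are too small for a test of single outlying values.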

How the results depend on the processing

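Of 2350 member tests under the alternatives, 2208 kept their direction and side of the threshold, 75 lost the call, 40 gained it, 2 were reversed and 25 not called values changed sign. Both reversals concern SLC3A2 at day 0, which went from 0.04 to -0.50 without the pair of libraries that stood apart; leaving out single libraries gave from -0.50 to 0.27. The count of members called at day 0 (3) was 0 with only the groups compared. At day 1 (2) it was 1 with the transcript length offset, 4 without the pair of libraries, 6 with only the groups compared, and 1 without any single library of that day. PERK KO day 2 against day 0 (7) gave 2 with only the groups compared. Over all genes, calls at day 1 went from 3129 to 4931 without the pair and 7355 with only the groups compared, those at day 0 from 4177 to 304, and those of PERK KO day 2 against day 0 from 8180 to 4399, both with only the groups compared; there the share of higher calls at day 0 moved from 59.1% to 40.1%. The median of all genes in PERK KO day 10 against day 0 moved from 0.01 to 0.11 with the stricter filter. The cause of these shifts was not tested.

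No paired analysis was taken as the main result: same-numbered libraries correlated in their deviations at -0.132 to 0.316, above 0.1 in 3 of 18 pairs, and 5 of 18 wild-type libraries were closest to their own number. With the replicate block, 8 members instead of 7 were called at day 3 and SLC7A11 at day 3 was called (1.01, adjusted p = 0.0453); no other count of members changed beyond that. TPM in place of CPM changed the ratio of group means by more than the spread for 19 of 60 values and reversed the direction of no called value. Low counts limit SLC1A4 (3 to 383 counts) and SLC7A11 in wild type from day 3.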
